A study of Chrysanthemum x morifolium with 40 samples.

Results

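The genes described here are the auxin repressors, auxin carriers and auxin-conjugating enzymes of chrysanthemum (Chrysanthemum x morifolium) roots under waterlogging. They were chosen by the protein each gene matched best in the deposited annotation, where the Swiss-Prot protein name held "auxin-responsive protein IAA", "auxin-induced protein AUX", "auxin efflux carrier", "auxin transporter" or "indole-3-acetic acid-amido synthetase". This gave 187 of 178540 genes under 42 protein names. They comprised 72 IAA-named repressors, 3 AUX-named repressors, 39 efflux carriers (PIN), 37 AUX/LAX transporters and 36 GH3 amido synthetases. No measured level was used to choose them. The names are those of the matched proteins of Arabidopsis, rice, Medicago and soybean, so that several chrysanthemum genes share a name and are called matches or copies of it here.

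Roots of 2 'Hangju' cultivars were sequenced. EWT is the waterlogging-tolerant cultivar, and CK is the conventional, sensitive cultivar 'zaoxiaoyangju'. Both cultivars were taken at 0 h, and after 3 h, 12 h and 24 h with 8-week-old seedlings submerged to 2 cm above the upper leaves, and at 24_3h, when seedlings waterlogged for 24 h had been back in air for 3 h. Each of the 10 groups had 4 libraries, 40 in all, and no group carried a transgene or another agent. Each cultivar was propagated from cuttings and is 1 genotype, so that a difference between EWT and CK is one between these 2 cultivars. Unflooded roots were taken only at 0 h, and flooding therefore cannot be told apart from time of day or handling time.

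Auxin acts by removing its own repressors. Aux/IAA proteins bind auxin response factors and hold their target genes off through TOPLESS corepressors, and auxin brings the Aux/IAA proteins to the receptors TIR1 and AFB, after which they are degraded. Many Aux/IAA and GH3 genes are themselves induced by auxin. PIN proteins carry auxin out of cells, or in the case of the short PIN5 of Arabidopsis into the endoplasmic reticulum, AUX1 and LAX proteins carry it in, and GH3 enzymes join it to amino acids for storage or breakdown. In roots this set of genes shapes tip growth, gravitropism and the start of lateral and adventitious roots.

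Levels are FPKM, fragment counts scaled to gene length and library size. A gene was tested where at least 4 of the 40 libraries reached 1 FPKM, which 89517 genes and 95 of the 187 members did. A gene was called changed where limma on log2(FPKM + 0.1) gave a Benjamini-Hochberg adjusted p over all tested genes of at most 0.05 and at least a 2-fold change. Log2 changes below are on that scale, which understates the change of low genes, and their error is the standard error (SE) of the fit. Of the other 92 members, 31 were at 0 in every library. A member at 0 in 1 cultivar could pass only through the other, where it is high, so that counts over the tested members describe those members and not all 187. Every non-zero value was a whole number of fragments within 0.01, and the libraries held 3517588 to 9929777 fragments in genes with a median of 6292021. Where a group had no fragment, the level allowed by 3 fragments over the group is used as the limit, which covers counting error only. The genes taken as a check of the treatment were higher in flooded roots of both cultivars. The summed FPKM of 60 pyruvate decarboxylase and non-symbiotic hemoglobin genes ranged between 8673 and 10220 in EWT at 3 h, against 101 to 143 in EWT at 0 h, and between 7896 and 11190 in CK at 3 h, against 83.3 to 113 in CK at 0 h. The mean correlation of every library with the others of its own group was higher than with the libraries of any other group. Some margins were small, as for replicate 3 of CK at 12 h with 0.8565, against 0.8485 with CK at 24 h.

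The 4 expressed classes moved in different ways. The summed level of the PIN class in EWT was 85.5 ± 7.8, 303 ± 22.8, 477 ± 144, 305 ± 81.6 and 209 ± 42.6 FPKM (SD, n = 4) at 0, 3, 12, 24 h and 24_3h. In CK it was 117 ± 9.9, 364 ± 54.6, 525 ± 74.7, 374 ± 27.8 and 199 ± 25.8 FPKM (SD, n = 4) over the same times. The PIN sum was therefore 5.58-fold of its 0 h level at 12 h in EWT and 4.48-fold in CK, and 1 gene, the PIN5 match evm_TU_scaffold_74_138, made up 66.1% of the class over all libraries. These are bulk roots, in which fewer cells of a type and less RNA per cell cannot be told apart.

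The AUX/LAX class was low in flooded roots, and lower in CK. Its sum in EWT was 58.4 ± 10.8, 23.3 ± 1.2, 26.4 ± 9.6, 31.4 ± 6.9 and 49.8 ± 9.8 FPKM (SD, n = 4) at 0, 3, 12, 24 h and 24_3h. In CK it was 56.0 ± 1.4, 18.1 ± 3.9, 5.81 ± 2.7, 5.85 ± 1.9 and 33.9 ± 19.0 FPKM (SD, n = 4). The level at 12 h was 2.21-fold below 0 h in EWT and 9.64-fold below it in CK. At 24_3h the CK mean rests on 1 library: replicate 4 had 62.3 FPKM and the other 3 had 22.5 to 25.5 FPKM.

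GH3 and IAA sums, on the deposited scale, were high late in flooding. GH3 genes summed to 72.8 ± 5.3, 79.2 ± 10.3, 292 ± 34.0, 489 ± 141 and 288 ± 98.7 FPKM (SD, n = 4) in EWT over the 5 times, and to 90.9 ± 10.6, 107 ± 23.7, 199 ± 32.0, 585 ± 143 and 245 ± 112 FPKM (SD, n = 4) in CK. IAA-named repressors summed to 395 ± 53.6, 474 ± 25.4, 676 ± 38.6, 551 ± 49.4 and 384 ± 45.1 FPKM (SD, n = 4) in EWT, and to 393 ± 20.1, 424 ± 32.6, 542 ± 45.7, 647 ± 94.8 and 362 ± 29.1 FPKM (SD, n = 4) in CK. The 3 AUX-named repressors, 2 matches to AUX22 and 1 to AUX28, were barely expressed, and none was tested. The sums are descriptions, since each is led by few genes, and carry no test. They were not computed with library size from all fragments. The deposited library size was 1.15 to 1.29 times the fragments in genes in EWT at 0 h, and 0.762 to 0.838 times at 12 h. In CK it was 1.14 to 1.23 times at 0 h and 0.780 to 0.991 times at 12 h. Deposited levels at 12 h thus stand higher against 0 h than with all fragments. The IAA sum at 12 h was 1.71-fold of 0 h in EWT and 1.38-fold in CK, and its rise may rest on this scaling.

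**Figure D1:**
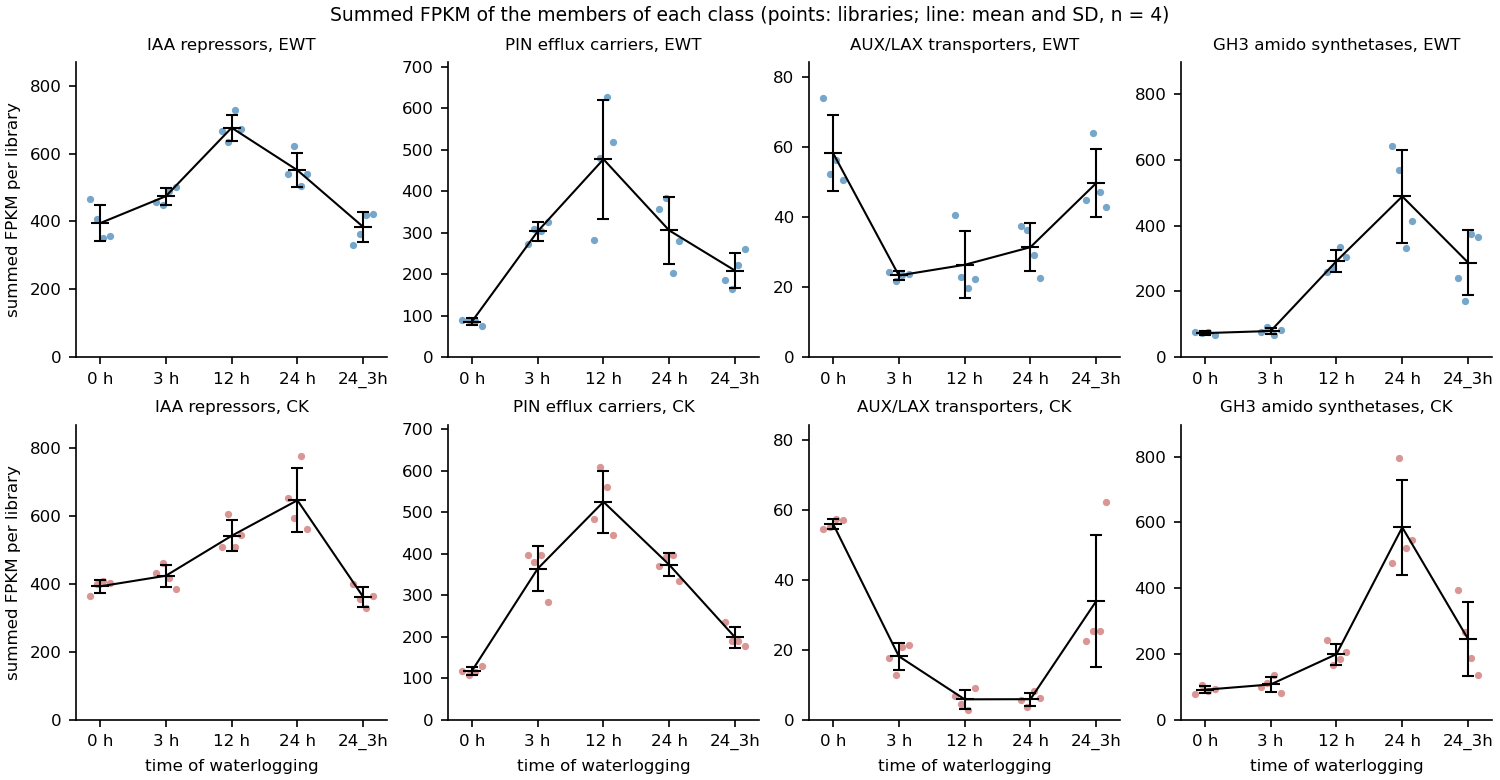
Summed FPKM of the IAA, PIN, AUX/LAX and GH3 classes (y axis) at 0, 3, 12, 24 h and 24_3h (x axis), EWT in the upper and CK in the lower panels. Points are libraries, and the line joins group means with SD (n = 4). The PIN sum peaked at 12 h in both cultivars, the GH3 sum at 24 h, and the AUX/LAX sum of CK lay near 5.81 FPKM at 12 h against 26.4 FPKM in EWT.

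Counted gene by gene, the members were called at rates above those of all tested genes at each time of flooding. In EWT, 41 of the 95 tested members were called at 3 h (19 higher, 22 lower), where 21.6% of all tested genes were called (8.96% higher, 12.7% lower). At 12 h EWT had 61 called members (26 higher, 35 lower), against 46.8% of all tested genes (20.2% higher, 26.5% lower). At 24 h it had 57 (25 higher, 32 lower), against 46% (19.3% higher, 26.7% lower). Most members were thus called at 12 h and 24 h. At 24_3h, 37 members differed from 0 h in EWT (18 higher, 19 lower), against 21.3% (9.13% higher, 12.1% lower).

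The counts in CK were close to these. After 3 h, 42 members were called (17 higher, 25 lower), against 25.5% of all tested genes (11.3% higher, 14.2% lower). After 12 h there were 62 (24 higher, 38 lower), against 45.6% (18.4% higher, 27.1% lower), and after 24 h there were 61 (28 higher, 33 lower), against 49% (20.4% higher, 28.6% lower). The count at 24_3h was 40 (16 higher, 24 lower), against 26.1% (10.2% higher, 15.9% lower). With library size taken from all fragments, the split in CK at 12 h was 17 higher and 49 lower, against 13.7% and 34.7% of all tested genes. That scaling moved the median log2 change of all tested genes at 12 h to -0.66 in EWT and -0.59 in CK, against -0.12 and -0.17 as deposited, and no called member changed its sign. Calls made in both cultivars numbered 31, 50, 46 and 32 at 3, 12, 24 h and 24_3h, which was 75.6%, 82%, 80.7% and 86.5% of the EWT calls and 73.8%, 80.6%, 75.4% and 80% of the CK calls. Over all tested genes the shared calls were 61.9%, 67.8%, 71.1% and 65.9% of the EWT calls and 52.4%, 69.6%, 66.8% and 53.7% of the CK calls. All shared calls of the members had the same direction in both cultivars. Whether their shares differ from those of all tested genes was not tested.

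**Figure D2:**
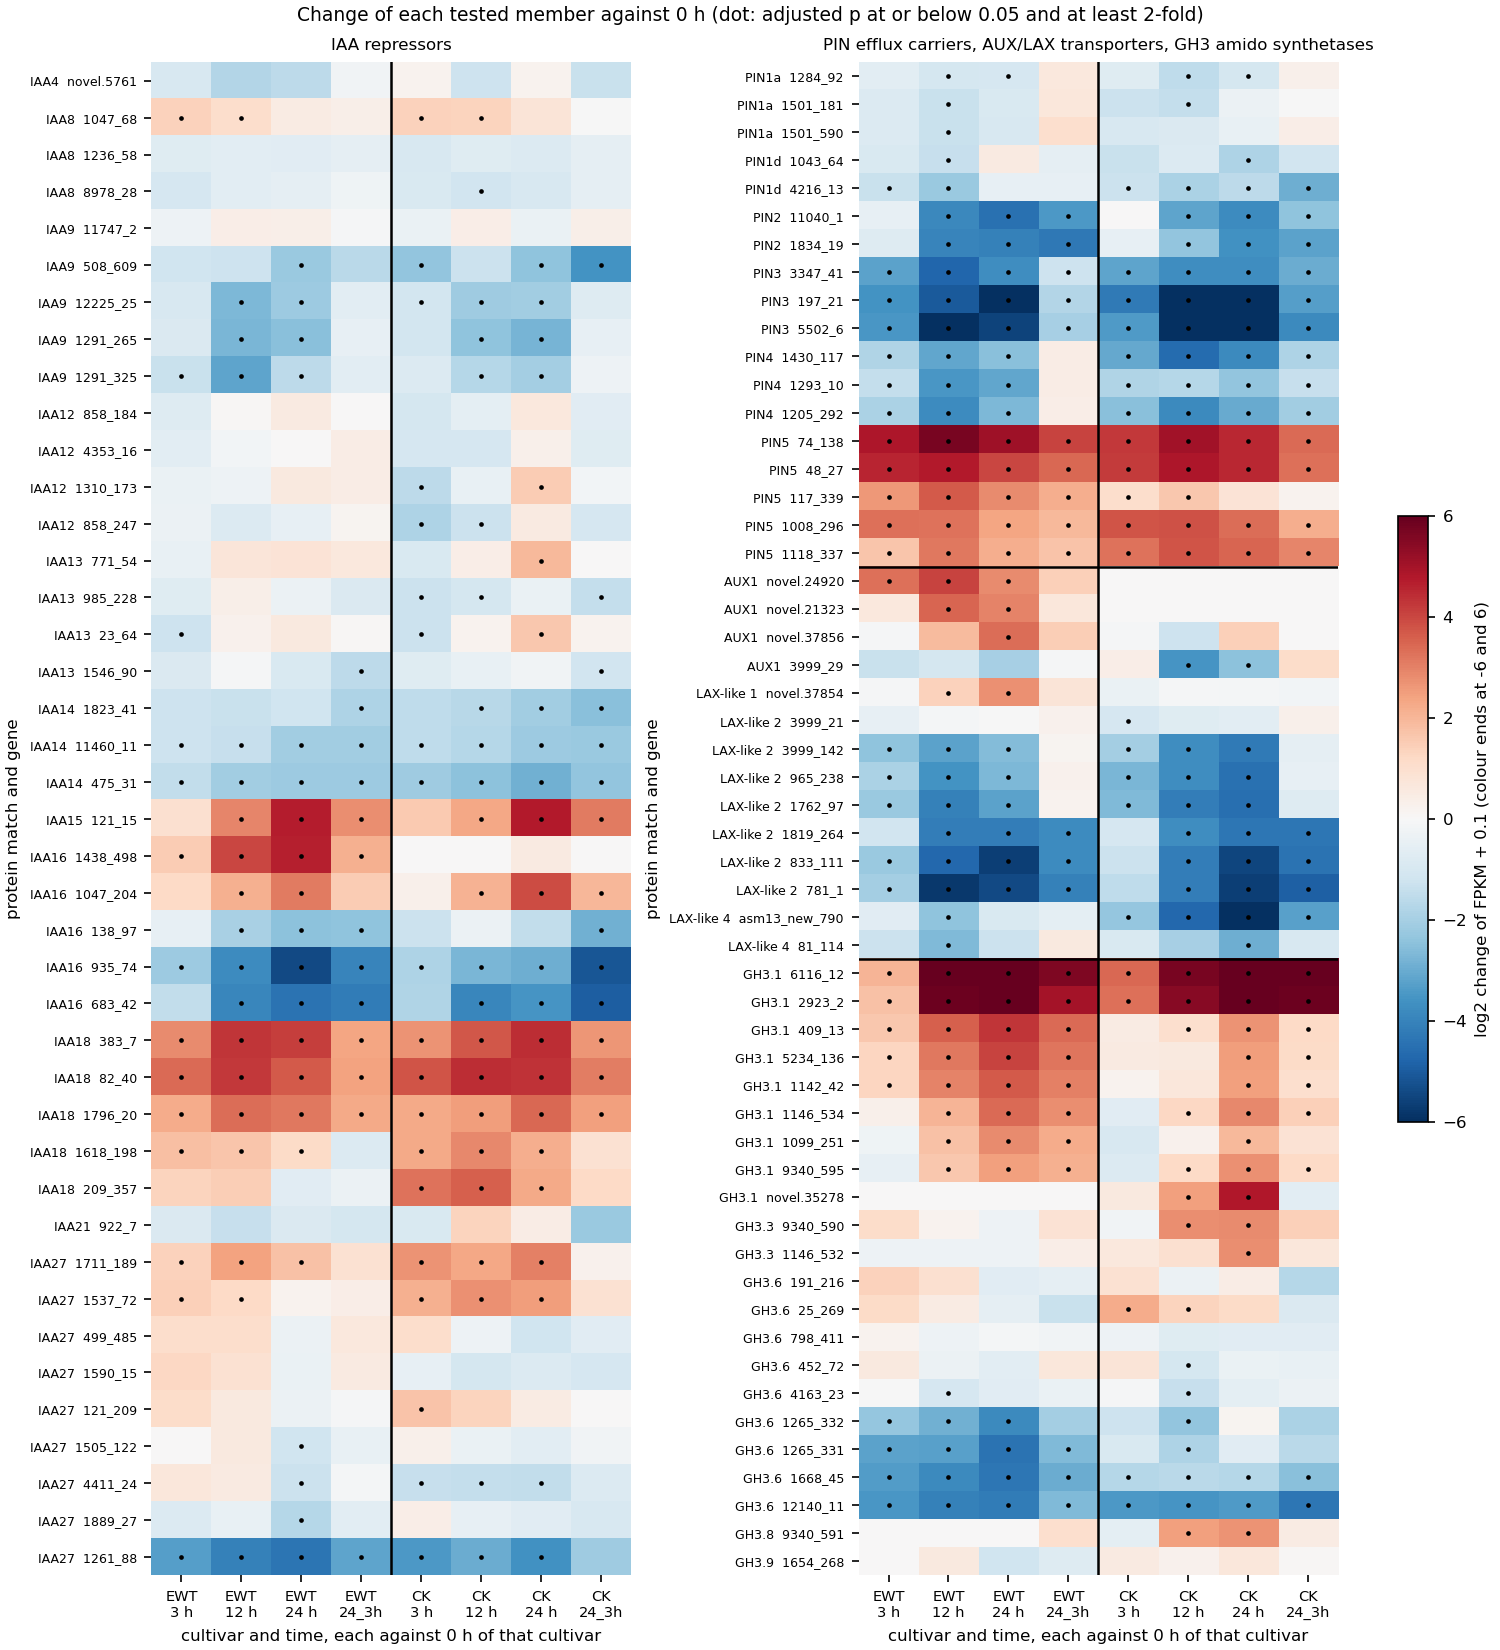
Log2 change of FPKM + 0.1 against 0 h of the same cultivar (colour, ends at -6 and 6) for the 95 tested members, by protein match (rows) and by cultivar and time (columns, EWT left of CK). Dots mark calls. PIN5, IAA18 and GH3.1 matches form bands of higher levels, and PIN2, PIN3, PIN4, LAX2, IAA14 and part of the GH3.6 matches form bands of lower levels.

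The repressors did not move as 1 class. Of the 41 tested IAA-named genes, 10 rose and 9 fell in EWT at 12 h (median log2 change 0.05), and 10 rose and 13 fell in CK (median -0.46). With library size taken from all fragments 7 rose and 14 fell in EWT and 9 rose and 18 fell in CK at 12 h. As deposited, in EWT 8 rose and 6 fell at 3 h and 8 rose and 13 fell at 24 h, while in CK 9 rose and 11 fell at 3 h and 12 rose and 11 fell at 24 h. Some match groups moved in 1 direction, while IAA16 matches (2 rose and 3 fell of 5 in EWT at 12 h) and IAA27 matches went both ways.

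IAA18 matches rose. In Arabidopsis a stabilised IAA18 reduces lateral rooting. All 5 tested copies rose in CK at 3, 12 and 24 h, and 4 of the 5 rose in EWT at each of these times. The most abundant repressor of the whole set was the IAA18 match evm_TU_scaffold_82_40 (chromosome 5, 275540151 to 275543962 in the deposited annotation). It had 316, 305, 325 and 319 FPKM in the EWT libraries at 12 h, against 18.8, 16.1, 12.6 and 19.8 FPKM in EWT at 0 h. In CK it had 164, 195, 183 and 156 FPKM at 12 h, against 8.44, 10.1, 6.12 and 7.29 FPKM at 0 h. Flooded and unflooded libraries lay far apart in both cultivars, with log2 changes of 4.25 (SE 0.17, adjusted p = 4.9e-21) in EWT and 4.45 in CK. After 3 h of reoxygenation evm_TU_scaffold_82_40 was still high but fell by 1.26 on the log2 scale against 24 h in EWT and by 1.27 in CK. EWT held more of it than CK before flooding too, with a log2 difference of 1.07 at 0 h. A second IAA18 match, evm_TU_scaffold_383_7 (chromosome 4, 283501663 to 283504150), averaged 0.58, 4.72, 12.4, 11.7 and 3.52 FPKM in EWT and 1.39, 9.08, 19.0, 30.8 and 9.31 FPKM in CK over the 5 times, and rose by 4.27 on the log2 scale in EWT at 12 h.

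IAA14 and IAA9 matches fell. A stabilised IAA14 blocks the first divisions of lateral roots in Arabidopsis. Of 3 tested IAA14 copies, 2 fell in EWT at 3, 12 and 24 h and all 3 at 24_3h, while in CK 2 fell at 3 h and all 3 afterwards. The IAA14 match evm_TU_scaffold_475_31, shown for its level after its values were seen, had 2.27, 1.21, 5.45 and 4.23 FPKM in EWT at 12 h, against 15.9, 13.1, 11.3 and 9.61 FPKM at 0 h, and 4.53, 6.89, 2.58 and 2.51 FPKM in CK at 12 h, against 19.3, 17.2, 24.5 and 25.6 FPKM at 0 h. It stayed low after reoxygenation, with log2 changes against 0 h of -2.19 in EWT and -2.38 in CK at 24_3h. Of 5 tested IAA9 copies 3 fell in each cultivar at 12 h and 4 at 24 h, and at 24_3h no copy was called against 0 h in EWT and 1 was in CK. The IAA16 match evm_TU_scaffold_935_74 (chromosome 10, 241467712 to 241469841) was the repressor that fell furthest in EWT at 12 h under the rule for named genes, to 1.44, 0.533, 0.17 and 0.15 FPKM, against 9.51, 7.33, 6.27 and 5.27 FPKM at 0 h (log2 change -3.80). In CK its change at 12 h was -2.75.

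IAA27 matches went both ways. Among the 9 tested copies 2 rose and 1 fell in EWT at 12 h and 2 rose and 2 fell in CK. The copy evm_TU_scaffold_1537_72 (chromosome 6, 268841299 to 268843600) is the most abundant of them and separated the cultivars. It had 11.3, 9.61, 9.49 and 6.41 FPKM in EWT at 12 h, against 67.1, 99.7, 56.5 and 88.9 FPKM in CK at 12 h. At 0 h it had 5.33, 3.59, 3.99 and 2.97 FPKM in EWT, against 10.1, 15.9, 12.0 and 8.90 FPKM in CK. The cultivars did not overlap at either time, and the change at 12 h was 1.19 in EWT and 2.72 in CK. The difference of these changes was -1.53 (SE 0.36, adjusted p = 0.0032), and it was -2.31 (adjusted p = 1.7e-05) at 24 h. Another copy, evm_TU_scaffold_1711_189 (chromosome 16, 78577667 to 78582365), rose by 2.40 in EWT and 2.34 in CK at 12 h, and fell by 2.75 against 24 h after reoxygenation in CK.

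Single repressors departed from their group, and these 2 were chosen after their values were seen. The IAA16 match evm_TU_scaffold_1438_498 (chromosome 4, 279000609 to 279002165) had 3.99, 2.60, 1.78 and 1.58 FPKM in EWT at 12 h, against 0 in all 4 CK libraries at 12 h, which makes EWT at least 9.68-fold higher. In CK it was above 0 in 1 of 20 libraries, and it passed the filter on low values through EWT alone. The IAA15 match evm_TU_scaffold_121_15 (chromosome 6, 265637287 to 265638826), named after a rice protein, had 19.6, 35.2, 16.9 and 28.8 FPKM in EWT at 24 h, against 0.827, 0.580, 0.475 and 1.82 FPKM at 0 h. It had 13.7, 5.35, 14.9 and 2.63 FPKM in CK at 24 h, against 0, 0, 0.741 and 0.546 FPKM at 0 h. It rose in both cultivars, with log2 changes of 4.73 in EWT and 4.78 in CK.

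An abundant repressor was not called. The IAA8 match evm_TU_scaffold_1236_58 (chromosome 5, 192728965 to 192733597), the second most abundant repressor, averaged 150, 89.6, 95.7, 92.8 and 103 FPKM in EWT and 92.7, 48.2, 55.7, 53.1 and 63.2 FPKM in CK, and its changes at 12 h were -0.63 in EWT and -0.74 in CK, short of 2-fold. With library size taken from all fragments it passed, at -1.24 in EWT and -1.21 in CK. Of the 4 IAA12 and 4 IAA13 matches none was called in EWT at 12 h, and 1 of each fell in CK. In Arabidopsis IAA12 represses the auxin response that founds the embryonic root.

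PIN carriers split into a match group that rose and the rest, of which none rose. All 5 tested PIN5 matches rose in EWT at 3, 12, 24 h and 24_3h, with median log2 changes of 3.31, 3.67, 2.83 and 2.16. In CK 5, 5, 4 and 4 of the 5 rose, with medians of 3.77, 3.81, 3.51 and 2.91. Of the 13 tested PIN genes that matched other PIN proteins none rose. In EWT 7, 13, 9 and 5 of them fell at 3, 12, 24 h and 24_3h, and in CK 7, 11, 11 and 9 fell, with medians at 12 h of -3.48 in EWT and -2.37 in CK.

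The PIN5 match evm_TU_scaffold_74_138 lies on chromosome 1, 146175861 to 146177738, on the minus strand. It had 219, 383, 492 and 412 FPKM in EWT at 12 h, against 6.10, 7.27, 8.01 and 6.34 FPKM at 0 h. The CK libraries had 366, 459, 404 and 315 FPKM at 12 h, against 9.64, 9.28, 14.6 and 13.8 FPKM at 0 h. Its log2 changes were 5.69 (SE 0.22, adjusted p = 1.5e-21) in EWT and 5.03 (SE 0.22, adjusted p = 4.9e-20) in CK at 12 h, and already 4.83 and 4.23 at 3 h. It was thus the most abundant member of all 187 in flooded roots, and reoxygenation lowered it by about the same amount in both cultivars, with log2 changes against 24 h of -1.02 in EWT and -1.09 in CK. The difference between EWT and CK was not called at 0 h (-0.74) or at 12 h (-0.08). The second PIN5 match, evm_TU_scaffold_1008_296, is on an unplaced scaffold and averaged 5.86, 57.8, 58.6, 30.4 and 23.3 FPKM in EWT and 6.33, 86.2, 88.3, 63.0 and 28.6 FPKM in CK over the 5 times. A low PIN5 match, evm_TU_scaffold_117_339, started from 0.0346 FPKM in EWT and 0.582 FPKM in CK at 0 h and rose more in EWT, by a log2 difference of 2.05 at 12 h, 2.03 at 24 h and 1.97 at 24_3h. It was chosen after its values were seen, and as EWT had few fragments of it at 0 h, these sizes depend on the added 0.1.

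PIN3 and PIN4 matches fell early. In Arabidopsis PIN3 redistributes auxin in the gravity-sensing root cap, and PIN4 feeds the auxin maximum at the root tip. All 3 tested PIN3 matches and all 3 tested PIN4 matches fell in both cultivars at 3, 12 and 24 h. The PIN3 match evm_TU_scaffold_5502_6 (chromosome 16, 205954764 to 205958044, plus strand) had 0.11, 0, 0.274 and 0 FPKM in EWT at 12 h, against 17.6, 18.6, 16.0 and 12.6 FPKM at 0 h. In CK it had 0.143, 0, 0 and 1.03 FPKM at 12 h, against 23.8, 19.2, 25.6 and 25.2 FPKM at 0 h. No flooded library at 12 h came near an unflooded one, and the log2 changes were -6.59 (SE 0.66, adjusted p = 1.9e-10) in EWT and -6.67 (adjusted p = 1.7e-10) in CK. The PIN3 match evm_TU_scaffold_197_21 (chromosome 18, 226517620 to 226520905) was already low at 3 h, with log2 changes at 3 h of -3.59 in EWT and -4.23 (adjusted p = 1.9e-09) in CK.

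PIN2 matches fell later. PIN2 moves auxin shootward through the outer cell layers of the Arabidopsis root tip. Neither of the 2 tested copies was called at 3 h in either cultivar, and both fell in both cultivars at 12 h, 24 h and 24_3h. The copy evm_TU_scaffold_1834_19, shown after its values were seen, averaged 4.13, 2.69, 0.214, 0.181 and 0.156 FPKM in EWT and 7.77, 5.38, 1.39, 0.508 and 0.768 FPKM in CK. The 5 tested copies of PIN1a and PIN1d all fell in EWT at 12 h, by smaller amounts.

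**Figure D3:**
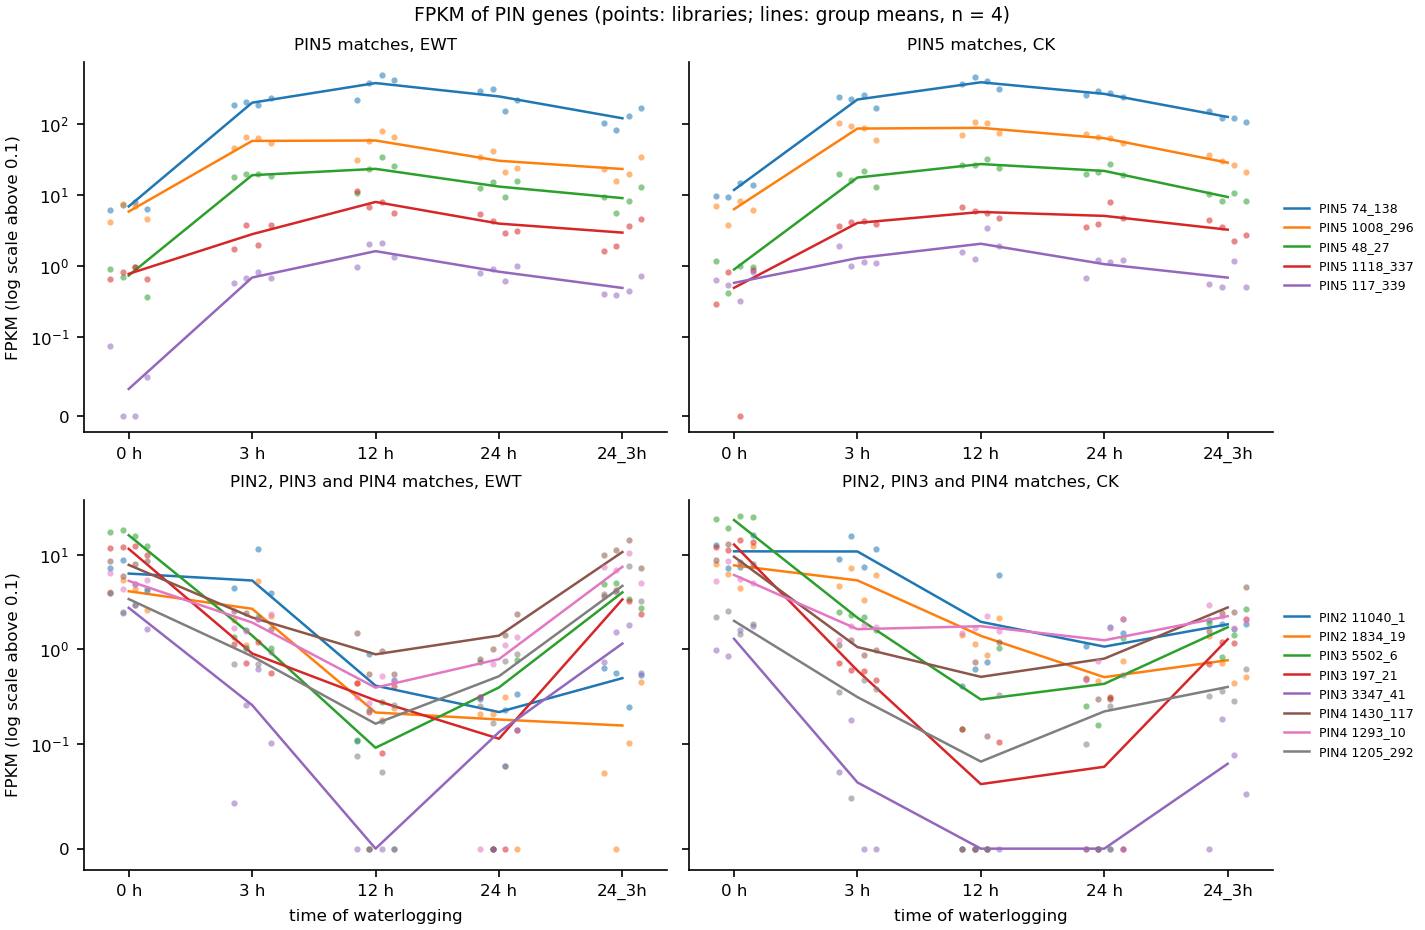
FPKM (y axis, log scale above 0.1) of PIN5 matches (upper panels) and of PIN2, PIN3 and PIN4 matches (lower panels) over the 5 times (x axis), EWT left and CK right. Points are libraries and lines are group means (n = 4). PIN5 match evm_TU_scaffold_74_138 stood above 200 FPKM in flooded roots at 12 h, while PIN3 match evm_TU_scaffold_5502_6 lay at or below 1.03 FPKM.

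Reoxygenation raised PIN3, PIN4 and PIN1a matches in EWT. Of the 13 PIN genes other than PIN5, 9 rose and none fell in EWT at 24_3h against 24 h, and 4 rose and 1 fell in CK. The 9 were all 3 PIN3, all 3 PIN4 and all 3 PIN1a matches, of which 7 had been called lower at 24 h. In that comparison 24.9% of all tested genes were called in EWT (13.3% higher, 11.7% lower) and 27.5% in CK (14.1% higher, 13.3% lower). All 3 PIN4 matches rose in EWT and none of them was called against 0 h any more, while in CK all 3 were still called lower than at 0 h. The PIN4 match evm_TU_scaffold_1205_292, chosen after its values were seen, had 3.86, 4.05, 7.62 and 3.29 FPKM in EWT at 24_3h, against 0.323, 0.366, 0.286 and 0.624 FPKM in CK at 24_3h, without overlap. That difference was 3.23 on the log2 scale (SE 0.52, adjusted p = 4.8e-06). The change from 0 h to 24_3h differed between the cultivars by 2.5 with an adjusted p of 0.0519, just short of a call, and the other PIN4 matches evm_TU_scaffold_1430_117 and evm_TU_scaffold_1293_10 gave 2.25 and 1.85 with adjusted p of 0.0973 and 0.152. For the PIN3 match evm_TU_scaffold_5502_6 the values at 24_3h were 4.89, 5.05, 3.39 and 2.74 FPKM in EWT, against 1.91, 0.822, 1.43 and 2.70 FPKM in CK. For evm_TU_scaffold_197_21 they were 3.65, 4.23, 3.28 and 2.38 FPKM in EWT, against 0.705, 1.19, 1.16 and 2.07 FPKM in CK, a called difference of 1.40. Its rise against 24 h was 4.27 (adjusted p = 1.4e-08) in EWT and 3.19 in CK. PIN2 matches stayed down in both cultivars.

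Most influx carriers called during flooding fell. Of the 14 tested AUX/LAX genes 1 rose and 5 fell in EWT at 3 h, 3 rose and 8 fell at 12 h, and 4 rose and 6 fell at 24 h. None rose in CK at any time, and 5, 8 and 9 fell at 3, 12 and 24 h. The rises in EWT at 3 and 12 h were all in entries that reached 1 FPKM in EWT alone. These entries were tested only through EWT, so the contrast with CK in rises at these times is no test between the cultivars. The median log2 change at 12 h was -2.52 in EWT and -3.63 in CK, where it was -3.71 with groups at 0 set to their limit. In CK at 24 h it was -3.59, or -4.25 at the limit.

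LAX2 matches make up 7 of the 14 tested, and 6 of these 7 fell in both cultivars at 12 and 24 h. In Arabidopsis LAX2 acts in vascular patterning, which need not hold for the copies below whose best match is a Medicago protein. The copy evm_TU_scaffold_1762_97 (chromosome 9, 232848278 to 232852210, minus strand) had 0.350, 0.987, 1.06 and 0.342 FPKM in EWT at 12 h, against 13.7, 13.2, 10.4 and 10.5 FPKM at 0 h. The CK libraries had 0.302, 0.404, 0.133 and 1.53 FPKM at 12 h, against 11.4, 7.13, 9.48 and 9.90 FPKM at 0 h. Flooded and unflooded libraries did not overlap in either cultivar, and the log2 changes were -4.08 (SE 0.54, adjusted p = 7.4e-08) in EWT and -4.16 (adjusted p = 5.5e-08) in CK. The copy evm_TU_scaffold_965_238 (chromosome 8, 238616063 to 238619995) changed by -3.57 in EWT and -3.72 in CK.

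After reoxygenation these LAX2 copies parted. evm_TU_scaffold_1762_97 had 12.5, 18.6, 15.4 and 10.5 FPKM in EWT at 24_3h, where it was at 0.881 to 1.43 FPKM at 24 h, and 3.30, 4.83, 3.49 and 15.8 FPKM in CK, where it was at 0 to 1.21 FPKM at 24 h. It rose against 24 h by 3.42 in EWT and 3.77 in CK and was not called against 0 h in either (0.23 in EWT, -0.76 in CK). In CK replicate 4 stood far above the other 3, also for evm_TU_scaffold_965_238 with 12.6 FPKM against 2.34, 6.28 and 3.49 FPKM in the other libraries, and without that library every CK value of evm_TU_scaffold_1762_97 at 24_3h still lay above every value at 24 h. The 3 copies that were no longer called against 0 h in either cultivar, evm_TU_scaffold_1762_97, evm_TU_scaffold_965_238 and evm_TU_scaffold_3999_142, matched a Medicago protein best. In CK the log2 changes against 0 h were -0.51 for evm_TU_scaffold_965_238 and -0.52 for evm_TU_scaffold_3999_142. The other 3 copies that fell, evm_TU_scaffold_781_1, evm_TU_scaffold_833_111 and evm_TU_scaffold_1819_264, matched the Arabidopsis protein best and were still called lower than at 0 h at 24_3h, with log2 changes against 0 h of -4.04, -3.79 and -3.78 in EWT and -4.88, -4.43 and -4.34 in CK. Of these, evm_TU_scaffold_833_111 was called higher than at 24 h in EWT (log2 change 1.88, adjusted p = 0.0162), with 0.116 to 0.494 FPKM at 24_3h against 0 in all 4 libraries at 24 h. In EWT evm_TU_scaffold_781_1 gave 1.36 (adjusted p = 0.0853), which was not called. This division by match was noticed after the values were seen and has no test of its own.

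The LAX4 match evm_TU_scaffold_asm13_new_790 (chromosome 15, 121113317 to 121118150) separated the cultivars clearly at 24 h. It had 3.58, 13.1, 3.41 and 2.73 FPKM in EWT at 24 h, against 0 in all 4 CK libraries at 24 h. At 0 h it had 13.0, 6.79, 11.8 and 5.33 FPKM in EWT, against 7.39, 4.99, 6.34 and 7.75 FPKM in CK. With the limit of 0.101 FPKM that 3 fragments allow, CK at 24 h was at least 65.6-fold lower than CK at 0 h, and EWT at 24 h at least 56.5-fold higher than CK at 24 h, or at least 32.2-fold without EWT replicate 2, the library with 13.1 FPKM. In EWT the change at 24 h was not called. The difference of the changes at 24 h passed the test, and its fitted size of 5.15 (SE 0.79, adjusted p = 1.7e-05) depends on the added 0.1 because of the 0 values. The gene is named because of its values.

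AUX1 matches and the LAX1 match made up the rises in EWT. At 12 h 2 of 4 tested AUX1 matches rose there, and at 24 h 3 did. The LAX1 match (1851 bases, chromosome 9, 232024226 to 232026653), outside the gene models, rose by 1.37 on the log2 scale at 12 h and 2.74 at 24 h. AUX1 is the main root influx carrier of Arabidopsis, needed for gravitropism. One AUX1 match is a short entry of 856 bases outside the gene models (chromosome 22, 285014808 to 285016023). It had 19.4, 12.2, 2.09 and 14.4 FPKM in EWT at 12 h, against 0.307, 0.431, 0.823 and 2.25 FPKM in EWT at 0 h (log2 change 3.5, SE 0.52, adjusted p = 7.2e-07), and 0 in all 20 CK libraries. The lowest flooded library lay just under the highest unflooded one. Against the CK limit it was at least 51.2-fold higher in EWT at 12 h, at least 29.4-fold at 24 h and at least 8.07-fold at 0 h, or at least 4.40-fold at 0 h without EWT replicate 4, the library with 2.25 FPKM. A second such AUX1 match (493 bases, chromosome 24, 279854626 to 279855478) was likewise at 0 in all CK libraries, and at least 14.2-fold higher in EWT at 12 h. Both entries, and the LAX1 match, passed the filter on low values through EWT alone. How reads of similar copies were assigned is not stated, which leaves the level of each single entry uncertain.

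**Figure D4:**
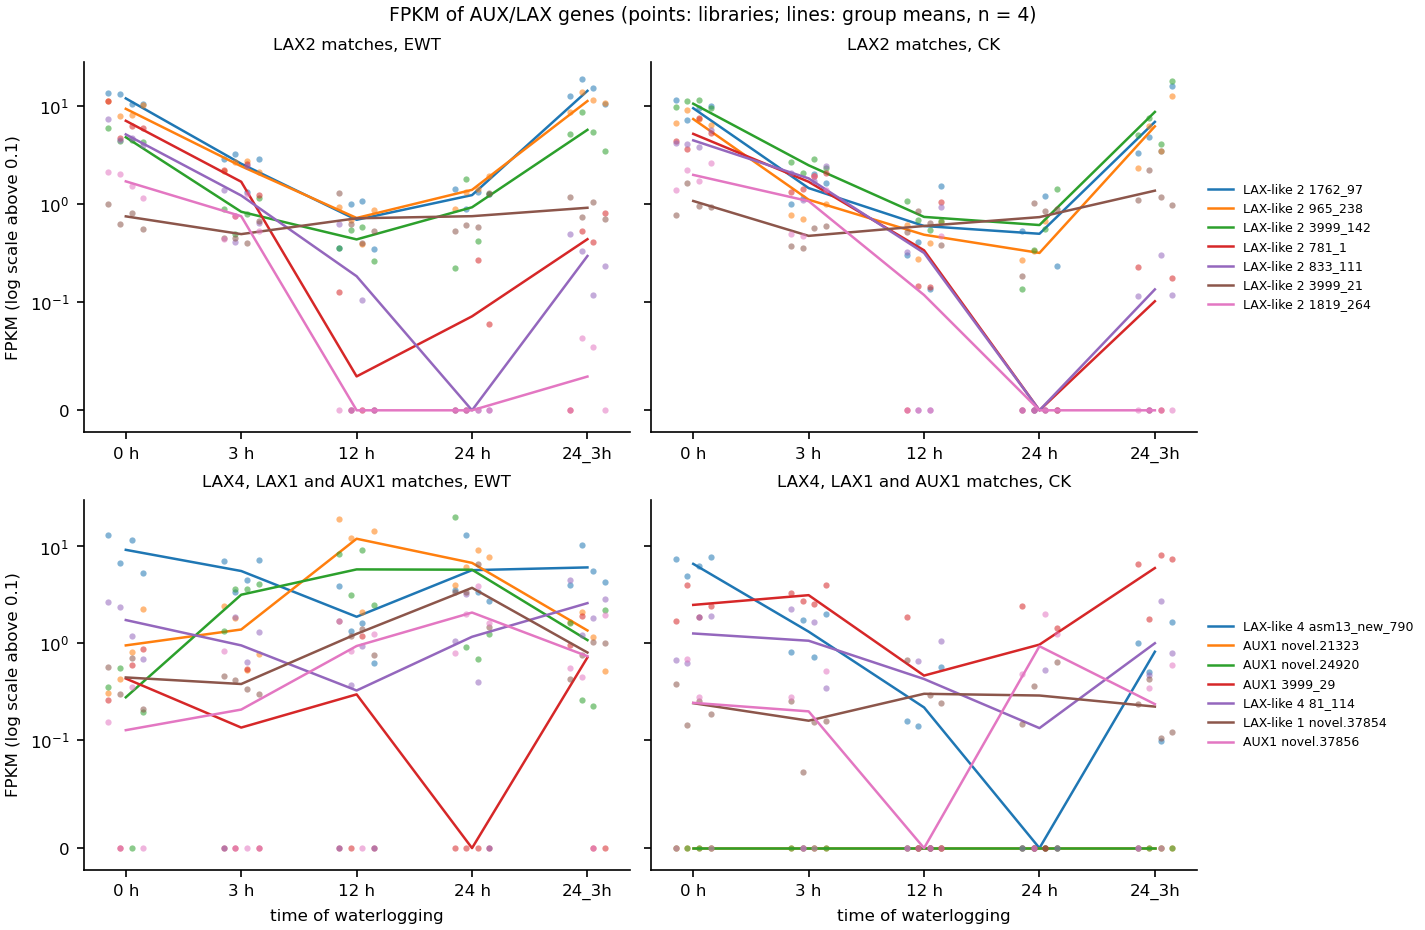
FPKM (y axis, log scale above 0.1) of LAX2 matches (upper panels) and of LAX4, LAX1 and AUX1 matches (lower panels) over the 5 times (x axis), EWT left and CK right. Points are libraries and lines are group means (n = 4). LAX2 match evm_TU_scaffold_1762_97 returned to 10.5 FPKM or more in EWT at 24_3h, and LAX4 match evm_TU_scaffold_asm13_new_790 was at 0 in CK at 24 h.

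Markers of root tissue moved in different ways. Casparian strip membrane proteins mark the endodermis, and the summed FPKM of their 30 genes ranged between 5.44 and 13.0 in EWT at 12 h, against 48.2 to 89.3 in EWT at 0 h, and between 6.76 and 18.7 in CK at 12 h, against 63.5 to 85.0 in CK at 0 h. At 3 h these sums were 29.6 to 69.2 in EWT and 44.2 to 58.5 in CK. At 24_3h they were 2.35 to 4.01 in EWT and 1.79 to 12.5 in CK. The 54 genes of dividing cells summed to 71.9 to 76.1 in EWT at 12 h, against 73.3 to 99.7 at 0 h, and to 41.7 to 55.3 in CK at 12 h, against 52.5 to 66.9 at 0 h. At 3 h they summed to 59.4 to 61.2 in EWT and 40.1 to 74.2 in CK, and at 24_3h to 38.2 to 55.2 and 17.1 to 24.6. Xylem genes, 64 in number, summed to 132 to 186 in EWT at 12 h, against 66.4 to 111 at 0 h, and to 224 to 288 in CK at 12 h, against 137 to 182 at 0 h. The xylem sums were lower at 3 h, at 26.0 to 41.0 in EWT and 47.0 to 80.2 in CK. At 24_3h they were 65.0 to 108 in EWT and 100 to 173 in CK. Green shoot genes, 179 in number, summed to 176 to 195 in EWT at 12 h, against 47.1 to 65.5 at 0 h, and to 88.9 to 155 in CK at 12 h, against 38.5 to 93.0 at 0 h. Their sums at 3 h were 79.8 to 134 in EWT and 65.8 to 86.4 in CK, and at 24_3h 55.2 to 118 and 62.8 to 117. High-affinity nitrate transporters, taken as a list for root nutrient uptake, have 39 genes. In EWT they summed to 516 to 723 at 0 h, 1204 to 1428 at 3 h and 554 to 863 at 12 h. In CK they summed to 240 to 346, 497 to 819 and 305 to 708 at these times. The part of cell makeup in the carrier and GH3 results was not tested.

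GH3.1 and GH3.6 matches moved in different directions. Not all GH3 enzymes of plants act on auxin, and the names here are those of synthetases that attach amino acids to it. Of 9 tested GH3.1 matches 5, 8, 8 and 8 rose in EWT at 3, 12, 24 h and 24_3h and none fell, with medians of 1.27, 2.95, 3.67 and 3.01. In CK 2, 6, 9 and 7 rose and none fell, with medians of 0.49, 1.2, 2.76 and 1.17. Of 9 tested GH3.6 matches none rose in EWT and 4, 5, 4 and 3 fell, while in CK 1 rose at 3 h and at 12 h and 2, 6, 2 and 2 fell. In Arabidopsis GH3.6 is among the GH3 genes that act in adventitious rooting.

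The GH3.1 match evm_TU_scaffold_409_13 (chromosome 2, 112792699 to 112795200, plus strand) was the most abundant GH3 gene and rose more in EWT by 12 h. It had 86.0, 99.1, 119 and 104 FPKM in EWT at 12 h, against 8.98, 8.54, 7.53 and 8.72 FPKM at 0 h. In CK it had 44.7, 35.1, 29.0 and 54.9 FPKM at 12 h, against 17, 26.9, 17.1 and 18.6 FPKM at 0 h. EWT thus began below CK, with a called log2 difference of -1.21, and stood above it at 12 h, at 1.35. The changes at 12 h were 3.57 (SE 0.30, adjusted p = 2.1e-12) in EWT and 1.02 (adjusted p = 0.0044) in CK. The CK change is at the edge of a 2-fold call. It was 0.55 with library size from all fragments, and the call was also lost without replicate 1, 3 or 4 of CK at 0 h or without replicate 1 or 4 of CK at 12 h, where the lowest value was 0.87. The difference of the changes was 2.55 (SE 0.42, adjusted p = 5.38e-05) at 12 h, 1.63 at 24 h and 2.17 at 24_3h. At 24 h its level was 252, 211, 97.2 and 157 FPKM in EWT, against 119, 163, 116 and 112 FPKM in CK, so that the groups overlapped.

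The change at 12 h was also larger in EWT for further GH3.1 copies. The copy evm_TU_scaffold_5234_136 (chromosome 3, 100427339 to 100429794) had 42.0, 45.5, 55.1 and 47.4 FPKM in EWT at 12 h, against 10.7, 6.05, 6.11 and 13.8 FPKM in CK at 12 h. At 0 h it had 5.35, 5.04, 4.03 and 6.42 FPKM in EWT, against 4.65, 7.57, 5.94 and 4.95 FPKM in CK. The cultivars overlapped at 0 h and were clearly apart at 12 h, and the difference of the changes was 2.58 (SE 0.43, adjusted p = 6.4e-05). For evm_TU_scaffold_1142_42 (chromosome 1, 126983602 to 126986089) the means were 5.77, 14.3, 45.6, 75.5 and 49.8 FPKM in EWT and 15, 17.7, 24.1, 84.2 and 33.5 FPKM in CK over the 5 times, and the difference of the changes at 12 h was 2.29.

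The copy evm_TU_scaffold_6116_12 (chromosome 5, 184042405 to 184044912) was higher in CK. It was the largest rise of any named member at 12 h in EWT, with 16.7, 15.5, 22.5 and 22.5 FPKM against 0.212, 0.0890, 0.486 and 0.0466 FPKM at 0 h (log2 change 6.17, SE 0.36, adjusted p = 2.3e-16). The CK libraries had 61.5, 27.4, 45.8 and 35.5 FPKM at 12 h, against 1.30, 0.701, 0.455 and 0.558 FPKM at 0 h (log2 change 5.67). At 24 h it had 36.3, 29.9, 21.5 and 18.1 FPKM in EWT, against 109, 207, 116 and 128 FPKM in CK, a log2 difference of -2.40. The difference of its changes was not called at 24 h (-0.82, adjusted p = 0.343).

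The GH3.6 match evm_TU_scaffold_1668_45 (chromosome 16, 45148323 to 45150866) fell further in EWT. It had 1.16, 0.828, 2.59 and 1.27 FPKM in EWT at 12 h, against 20.3, 23.1, 24.7 and 15.1 FPKM at 0 h (log2 change -3.83, SE 0.45, adjusted p = 5.6e-09). In CK it had 3.14, 1.87, 2.24 and 4.99 FPKM at 12 h, against 9.02, 9.10, 9.32 and 8.37 FPKM at 0 h (log2 change -1.61). EWT began higher and the cultivars overlapped at 12 h, and the difference of the changes was -2.22 (SE 0.64, adjusted p = 0.0178) at 12 h and -2.62 at 24 h. The GH3.6 match evm_TU_scaffold_452_72 (chromosome 23, 294656966 to 294659672) was lower in EWT from the start, with 0.885, 0.761, 0.969 and 1.19 FPKM in EWT at 0 h, against 3.18, 5.33, 4.83 and 6.42 FPKM in CK (log2 difference -2.23).

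**Figure D5:**
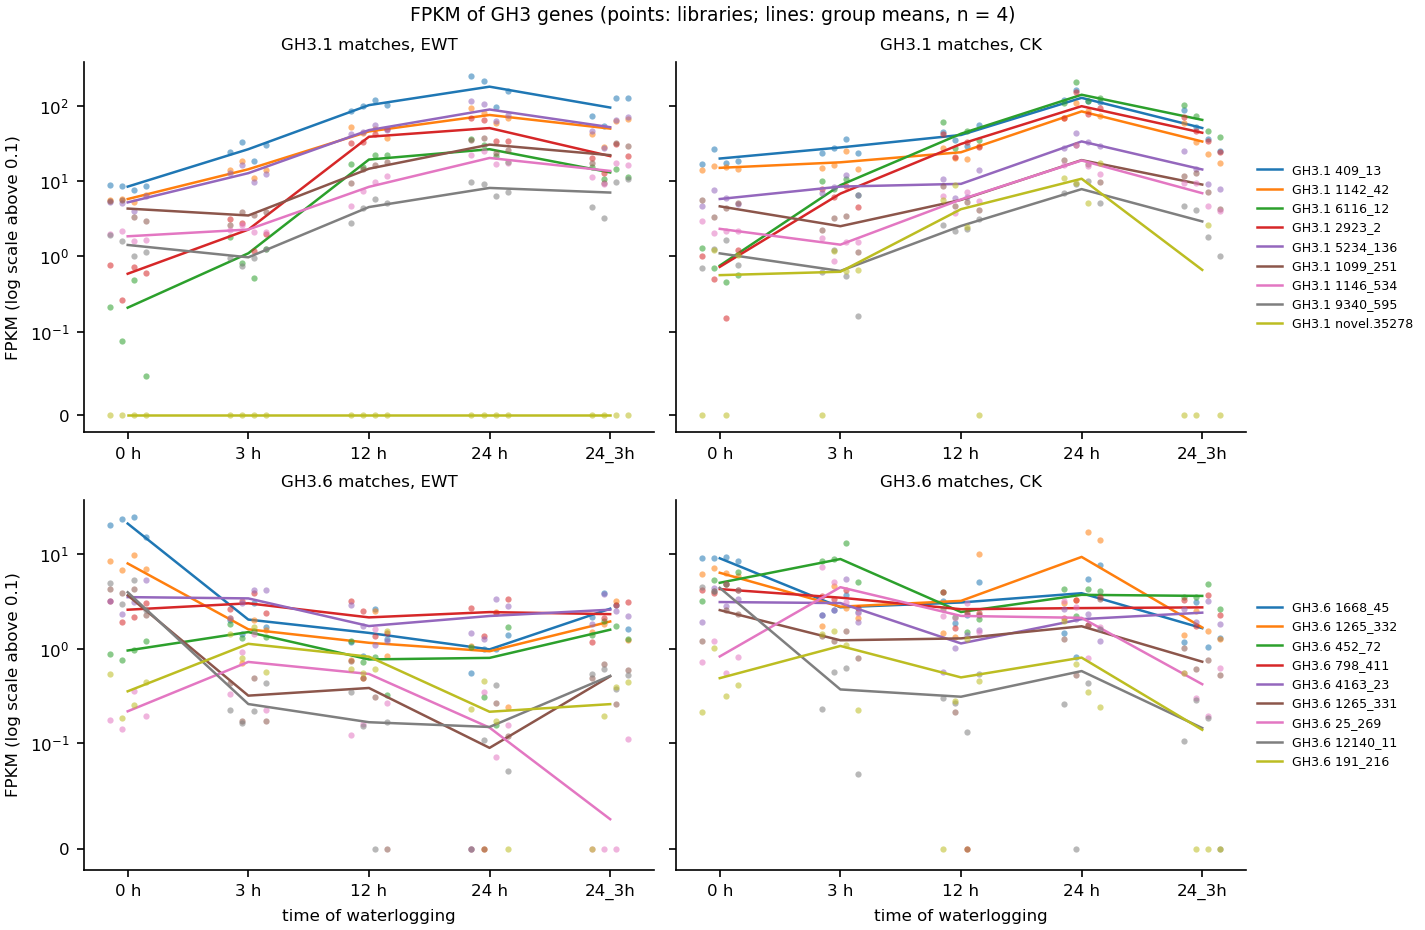
FPKM (y axis, log scale above 0.1) of GH3.1 matches (upper panels) and GH3.6 matches (lower panels) over the 5 times (x axis), EWT left and CK right. Points are libraries and lines are group means (n = 4). GH3.1 match evm_TU_scaffold_409_13 lay between 86.0 and 119 FPKM in EWT at 12 h and between 29.0 and 54.9 FPKM in CK, and GH3.6 match evm_TU_scaffold_1668_45 was low in both cultivars after 0 h.

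A cluster of short GH3 entries on chromosome 7 was at or near 0 in EWT. The 3 entries, 1 outside the gene models (201784121 to 201784340), evm_TU_scaffold_9340_591 (201784354 to 201784608) and evm_TU_scaffold_9340_590 (201784764 to 201785495) matched GH3.1, GH3.8 and GH3.3 and lie next to each other. At 24 h all 3 were at 0 in every EWT library and averaged 10.7, 9.25 and 4.89 FPKM in CK, which put EWT at least 16.7-fold, 16.7-fold and 25.3-fold lower. They share 1 short stretch of the chromosome, and were named because of their values. The entry outside the gene models and evm_TU_scaffold_9340_590 passed the filter on low values through CK alone. Both were thus tested only through the cultivar where they are high. In all, 41 members lay in 16 clusters with neighbours of the same class within 100000 bases.

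Before flooding, EWT and CK differed in 25 of the 95 tested members, 7 higher and 18 lower in EWT, where 30% of all tested genes were called (16.4% higher, 13.6% lower). With a pseudocount of 1 in place of 0.1 the count was 13, with 2 higher and 11 lower. GH3 genes took 8 of these (1 higher, 7 lower in EWT). Among the 85 members that reached 1 FPKM in both cultivars, 6 were higher and 15 lower in EWT. Of the 19 GH3 genes among them, 1 was higher and 6 were lower. The IAA9 match evm_TU_scaffold_11747_2 (chromosome 3, 208587961 to 208603669) was the largest difference in favour of EWT under the rule, with 3.05, 4.48, 5.07 and 7.54 FPKM in EWT, against 0.492, 0.458, 0.136 and 0.402 FPKM in CK (log2 difference 3.46, SE 0.70, adjusted p = 0.00015). It kept that difference through flooding, with 3.56, 3.47 and 4.20 at 3, 12 and 24 h. The IAA27 match evm_TU_scaffold_4411_24 (chromosome 2, 286180663 to 286183009) was the reverse, with 1.44, 1.71, 1.35 and 1.09 FPKM in EWT, against 8.46, 12.6, 12.0 and 7.02 FPKM in CK (log2 difference -2.73). In CK it then fell by 1.43 on the log2 scale at 12 h.

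During flooding the cultivars differed in 24 members after 3 h, of which EWT had 10 higher and 14 lower, against 33% of all tested genes (17.2% higher, 15.8% lower). After 12 h they differed in 31 (15 higher and 16 lower in EWT), against 38.2% (21.6% higher, 16.6% lower). For 24 h the count was 39 (11 higher and 28 lower in EWT), against 38.8% (21.5% higher, 17.4% lower), and for 24_3h it was 35 (19 higher and 16 lower), against 30.2% (16.9% higher, 13.3% lower). These totals lay near the background, except that the one at 3 h was below it. At 24 h more members were lower than higher in EWT, while more of all tested genes were higher. Whether that split differs from the background was not tested. Of the 95 members 10 reached 1 FPKM in 1 cultivar alone, and were tested only through the cultivar where they are high, so that class counts are given for the other 85. Of 11 such AUX/LAX genes, EWT had 2 higher and 2 lower at 3 h, 2 and 0 at 12 h, 3 and 0 at 24 h and 2 and 1 at 24_3h. Of 19 such GH3 genes, it had 0 higher and 5 lower at 3 h, 3 and 4 at 12 h, 1 and 8 at 24 h and 4 and 4 at 24_3h.

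The difference between the cultivars' changes was called for few members. There was 1 such member at 3 h, larger in EWT, against 5.05% of all tested genes (2.77% higher, 2.28% lower). There were 10 for 12 h, 8 of them higher in EWT and 2 lower, against 10.8% (5.97% higher, 4.83% lower), and 17 for 24 h, 10 higher and 7 lower, against 12% (6.07% higher, 5.91% lower). For 24_3h all 5 were higher in EWT, against 2.94% (1.83% higher, 1.11% lower). The call at 3 h was the AUX1 match of 493 bases, which is at 0 in every CK library, so that its value is the EWT change alone and no call remained for a member that reached 1 FPKM in both cultivars. Among these 85 members 5 were higher and 2 lower at 12 h, 7 and 5 at 24 h, and 4 and 0 at 24_3h. The GH3.1 matches evm_TU_scaffold_409_13, evm_TU_scaffold_5234_136 and evm_TU_scaffold_1142_42 were called at 12 h, 24 h and 24_3h, and at 24_3h these 3 were joined only by the PIN5 match evm_TU_scaffold_117_339 and the PIN1d match evm_TU_scaffold_4216_13 (2.44), which reached 1 FPKM in CK alone. Without replicate 4 of CK at 0 h, or without replicate 4 of EWT at 24_3h, the count for 24_3h was 3. At 24 h the 2 AUX/LAX genes among them with a higher change in EWT were evm_TU_scaffold_asm13_new_790 and evm_TU_scaffold_965_238, the last with 1.78 (adjusted p = 0.0499). The members called lower in EWT at 24 h included evm_TU_scaffold_1668_45, evm_TU_scaffold_1537_72 and evm_TU_scaffold_935_74 (-2.5) and the neighbouring GH3.6 entries evm_TU_scaffold_1265_331 and evm_TU_scaffold_1265_332 on chromosome 18, with differences of -3.76 and -3.95.

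Reoxygenation for 3 h moved 28 members against 24 h in EWT (19 higher, 9 lower) and 43 in CK (12 higher, 31 lower), or 35 in CK without replicate 4 at 24_3h. These were 29.5% and 45.3% of the tested members, against 24.9% of all tested genes in EWT (13.3% higher, 11.7% lower) and 27.5% in CK (14.1% higher, 13.3% lower), so that the EWT share lay near the background. The classes differed between the cultivars' lists. Among GH3 genes 3 rose and 1 fell in EWT, and none rose and 12 fell in CK (median -1.40), including all 9 GH3.1 matches. Among IAA-named repressors 3 rose and 5 fell in EWT, and 3 rose and 15 fell in CK (median -1.02). AUX/LAX genes gave 4 higher and 2 lower in EWT, and 5 higher and 0 lower in CK. With library size taken from all fragments the splits became 27 higher and 5 lower in EWT and 17 higher and 11 lower in CK. Under that scaling 21.7% of all tested genes rose and 6.47% fell in EWT, and 21.6% rose and 7.43% fell in CK. The CK total then lay near the background too. The median change of all tested genes became 0.45 in EWT and 0.32 in CK, against 0.06 and 0 as deposited. In CK under that scaling 4 GH3 genes and 7 IAA-named genes were called lower. These counts were not tested against each other.

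In most lists of the rest of the auxin pathway more genes fell than rose. Of 84 tested auxin response factors 5 rose and 37 fell in EWT at 12 h, and 4 rose and 38 fell in CK. TIR1 and AFB receptor genes gave 3 higher and 9 lower of 27 in both cultivars. TOPLESS corepressors, 36 tested, gave 1 higher and 11 lower in EWT and 2 higher and 12 lower in CK. Synthesis genes of the YUCCA and tryptophan aminotransferase kinds, 24 tested, gave 1 higher and 12 lower in EWT and 3 higher and 11 lower in CK. Over all tested genes, 20.2% rose and 26.5% fell at that time in EWT, while 18.4% rose and 27.1% fell in CK.

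Genes that act on the carriers or on auxin conjugates had like counts. PINOID and D6PK-type kinases, which phosphorylate PIN proteins, gave 3 higher and 15 lower of 26 in EWT at 12 h and 3 higher and 19 lower in CK. PIN-LIKES and WAT1-type transporters, 34 tested, gave 5 higher and 16 lower in EWT and 7 higher and 9 lower in CK. Hydrolases that free auxin from its conjugates and DAO dioxygenases, 38 tested, gave 6 higher and 19 lower in EWT and 6 higher and 18 lower in CK. Other early auxin response genes, named SAUR or auxin-induced protein other than AUX, were the list with the most rises. It gave 20 higher and 13 lower of 67 in EWT and 11 higher and 16 lower in CK. Of its 258 genes, tested or not, 16 carry an AUX/IAA family domain in the deposited annotation. The list therefore mixes SAURs with genes that may be repressors under other names, which the repressor class here leaves out. With library size taken from all fragments 14 genes of that list rose and 17 fell in EWT at 12 h, so that its direction turned, and in all other lists more genes still fell than rose. At 24_3h against 24 h, 7 of 27 receptor genes rose in EWT and 13 of 27 in CK, with none lower, where 13.3% and 14.1% of all tested genes rose. With library size taken from all fragments these counts were 11 and 18, against 21.7% and 21.6%. The response factors gave 23 higher and 4 lower of 84 in EWT and 17 higher and 6 lower in CK in that comparison, or 39 and 1 of 88 in EWT and 27 and 1 in CK with all fragments.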

How the data were processed

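Poly(A) RNA of roots was sequenced, with 40 libraries in 10 groups of 4, which the labels call by cultivar, time and replicate. Per the labels and methods, the authors trimmed reads with fastp, aligned them with HISAT2 2.0.5 to a chrysanthemum genome and counted them per gene with featureCounts 1.5.0-p3. The name of the genome build, the strand setting and the handling of reads shared by similar copies are not given in the sources used here, so values of single copies are uncertain. Greenhouse conditions differ between the labels and the study's methods. The authors deposited FPKM per gene with coordinates and Swiss-Prot matches. Their library sizes followed a scaling between samples and not the sum of all fragments, which is why an alternative with all fragments was run. The depth per library, 3517588 to 9929777 fragments in genes, limits low genes: 3 fragments over a group were taken as the floor.

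Values were analysed as log2(FPKM + 0.1) for genes with at least 1 FPKM in at least 4 libraries, with limma 3.58.1 in R 4.3.3 (lmFit, contrasts.fit, eBayes with trend, two-sided), 1 mean per group in 1 fit of all 40 libraries. Differences between cultivars in the change from 0 h were interaction terms. Sums, neighbours and limits were computed in Python 3.11.15. On simulated data for EWT at 12 h against 0 h with 79477 genes, 4 of 67 genes changed 2-fold, 48 of 67 changed 4-fold and 65 of 66 changed 8-fold were called, with 6 false calls. Changes were planted only in genes above a limit of mean fragments, with a single dispersion for all genes. All other genes were left unchanged, unlike in these data. The figures therefore do not cover members with few fragments. Members, lists and rules were chosen with earlier results of these data known. Members named by rule had, in each class, the highest 2 means over all libraries. Further ones, among called members of at least 2 FPKM on average whose groups did not overlap, were the largest rise and fall in EWT at 12 h per class and in CK at 12 h over all, the 2 largest differences each way between cultivars at 0 h, the 2 largest interactions each way at 12 h (overlap allowed), and the largest rise and fall at 3 h and on reoxygenation in each cultivar. Any other member was named after its values were seen. Alternatives were library size from all fragments, other pseudocounts and filters, vooma weights, only the groups compared, a replicate block, unadjusted p and leaving out each library.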

Additional observations from a re-analysis of the deposited data

Results flagged for a closer look

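In 9 of the 210 groups of 4 libraries examined for the 21 named members (4.29%, where chance alone gives about 1 in 20), a library stood apart from the other 3. In CK at 24_3h replicate 4 had 15.8 FPKM of the LAX2 match evm_TU_scaffold_1762_97 where the next library had 4.83 FPKM, and replicate 2 had 3.06 FPKM of the GH3.6 match evm_TU_scaffold_1668_45 where the next had 1.30 FPKM. In CK at 0 h and at 24 h replicate 2 was high for the GH3.1 match evm_TU_scaffold_409_13, with 26.9 FPKM (next 18.6 FPKM) and 163 FPKM (next 119 FPKM). In CK at 3 h replicate 3 had 25.4 FPKM of the GH3.1 match evm_TU_scaffold_1142_42 (next 16.2 FPKM). In CK at 12 h replicate 4 had 1.03 FPKM of the PIN3 match evm_TU_scaffold_5502_6 (next 0.143 FPKM). In CK at 24 h replicate 2 was low for the GH3.6 match evm_TU_scaffold_452_72, with 2.19 FPKM (next 4.06 FPKM), and replicate 3 had 0.312 FPKM of the PIN3 match evm_TU_scaffold_197_21 where the others had 0. In EWT at 24_3h replicate 4 had 3.26 FPKM of the IAA27 match evm_TU_scaffold_1711_189 (next 2.22 FPKM).

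The changes of 5 named members at 12 h differed between EWT and CK by the interaction test. The difference was 2.55 for evm_TU_scaffold_409_13, 2.58 for evm_TU_scaffold_5234_136 and 2.29 for evm_TU_scaffold_1142_42, all GH3.1 matches, -2.22 for evm_TU_scaffold_1668_45 and -1.53 for the IAA27 match evm_TU_scaffold_1537_72, on the log2 scale. The naming rule itself takes called members with the largest of these differences. That such members pass is therefore in part fixed by the choice and gives no separate support.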

How the results depend on the processing

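Of 355 alternative counts of called members 328 stayed within 1.5 times the count as reported, and 27 did not. Of the alternative values of named members 684 kept their side of the threshold, 2 passed it newly, 9 lost the call and none reversed. With library size from all fragments, 28 members were called on reoxygenation in CK, against 43. With a pseudocount of 1, 13 members differed between EWT and CK at 0 h, against 25. The difference of the changes at 3 h, called for 1 member, was called for 0 without a filter on low values, 8 with only the groups compared, 4 with a pseudocount of 1, 2 with the replicate block, 13 by unadjusted p and 0 with vooma weights. At 12 h unadjusted p gave 21 against 10, and at 24 h 27 against 17. At 24_3h the count of 5 became 9 with only the groups compared, 12 with a pseudocount of 1, 18 by unadjusted p and 10 with vooma weights. Leaving out 1 library at a time gave 0 to 2 at 3 h and 3 to 6 at 24_3h for these differences, 56 to 60 calls in EWT and 53 to 61 in CK at 12 h against 0 h, and 35 to 42 on reoxygenation in CK. Replicate numbers did not pair the libraries: over 60 pairs of equal number the correlation of deviations ranged between -0.082 and 0.0786, and 16 of 60 correlated best with their own number. With the replicate block 2 members were called for the difference at 3 h, against 1. The cause of these shifts was not tested.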
